A study of Mus musculus with 8 samples.

Results

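Retinoic acid is made from vitamin A, and the genes of its synthesis, carriage and reception were read here in tumor cells sorted from mouse prostate cancer grafts. The set held 9 genes picked by name from the 39089 genes in the deposited tables. They comprised the retinaldehyde dehydrogenase genes *Aldh1a1*, *Aldh1a2* and *Aldh1a3* with the rodent copy *Aldh1a7*, the carriers *Crabp1* and *Crabp2*, and the receptors *Rara*, *Rarb* and *Rarg*. All 9 were found, and 5 passed the filter on low counts that left 13921 genes for testing. *Aldh1a1* had been singled out earlier in these data for a small interaction p, so its levels and differences are given as a description without any p. The other genes were added for their family or role.

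Myc-CaP is a mouse prostate cancer cell line driven by *Myc*. Every tumor grew from these cells under the skin of a male FVB mouse aged 6 weeks, and the grafted cells held a control vector (WT) or a guide against *Arid1a* (*Arid1a* KO), the gene of a SWI/SNF chromatin remodeling subunit. JSH-23, which blocks the entry of the NF-κB subunit p65 into the nucleus, was given by gavage every day for 2 weeks from day 16, and vehicle mice received corn oil. RNA-seq of cells sorted as EpCAM+ and CD45- gave 4 groups of 2 samples: WT with vehicle, *Arid1a* KO with vehicle, WT with JSH-23 and *Arid1a* KO with JSH-23. Nothing in the sources says how tumors or mice were assigned to the 2 samples of a group, so the p-values measure only the spread between these samples, which may be technical. The model is 1 cell line in a single host strain, and the sources used here do not say whether the *Arid1a* KO cells were 1 clone.

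In the pathway, retinol is taken up by cells, held by binding proteins and oxidized reversibly to retinal by retinol and alcohol dehydrogenases. ALDH1A enzymes then oxidize retinal to retinoic acid, a step that cannot be reversed, and CYP26 enzymes clear the acid. CRABP proteins carry retinoic acid in the cytoplasm, and RAR receptors bind it in the nucleus as partners of RXR. ALDH1A1 is also widely used as a marker of progenitor-like cells in epithelial tumors.

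*Aldh1a1* and *Aldh1a7* lie on the same chromosome of GRCm38, at chr19:20492583-20643463 on the plus strand and chr19:20692953-20727556 on the minus strand, with their 3′ ends facing each other. Their sequences are shown first because both genes moved together in these data and because reads of such close copies can be placed on either gene. A stretch of 94 bases that ends just before the annotated start site differed at 3 bases, which are in capitals, between *Aldh1a7* (chr19:20727557-20727650, minus strand) and the proximal start of *Aldh1a1* (chr19:20601874-20601967, plus strand), in RefSeq promoters of GRCm38.p6, written 5′ to 3′.
*Aldh1a1*: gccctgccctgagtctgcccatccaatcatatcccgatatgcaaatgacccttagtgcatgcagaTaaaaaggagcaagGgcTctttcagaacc
*Aldh1a7*: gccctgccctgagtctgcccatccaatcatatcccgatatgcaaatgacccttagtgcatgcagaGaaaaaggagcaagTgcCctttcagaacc

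Counted from the 5′ end of the stretch, with the *Aldh1a1* base first, the substitutions were T66G, G80T and T83C. T66G lay 29 bases before the start site, and it fell in the TATA-like hexamer ATAAAA, which the *Aldh1a1* stretch held from base 65 and the *Aldh1a7* stretch lacked on both strands. CCAAT stood from base 23 in both. Within the 250 bases before the start site, the promoters aligned over 110 bases with an identity of 95.5%. The bases before the distal annotated start of *Aldh1a1* aligned with *Aldh1a7* over only 18 bases.

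The likeness continued in the transcripts. The coding sequences of *Aldh1a1* and *Aldh1a7* were both 1503 bases long in the reference annotation, and 1384 of these bases (92.1%) were identical. Their longest identical run within a single exon spanned 94 bases of exon 8 of 13, at chr19:20629063-20629156 in *Aldh1a1* and chr19:20709398-20709491 in *Aldh1a7*. It is printed to show where a short read could not tell the copies apart.
Both genes: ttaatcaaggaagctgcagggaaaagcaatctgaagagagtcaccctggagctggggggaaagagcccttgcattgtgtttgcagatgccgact

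Of all 50-base windows of the *Aldh1a7* transcript, 7.49% also occurred in *Aldh1a1*. The share was 2.51% for windows of 75 bases and 0% for windows of 150 bases. The read length is not given in the sources used here, so the counts of both genes are best read as uncertain with respect to each other.

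RefSeq promoter windows of 300 bases were available for 7 of the 9 genes and were searched on both strands for motifs, none of which contains another. An NF-κB motif, GGGA and CC separated by any 4 bases, occurred in 3 of 4 windows of *Rara*, in no window of the other 6 genes and in 20.7% of all 32851 windows. AGGTCA, a nuclear receptor half-site, was found in 1 of 4 windows of *Rara*, 1 of 2 windows of *Rarg* and 16.3% of all windows. The exact string of GTTCA, any 5 bases and GTTCA was in no window of the 7 genes and in 13 windows in all. Retinoic acid response elements in their usual forms were not searched for. CCAAT was held by 37.4% of all windows and ATAAAA by 18.5%, the latter also by the *Aldh1a7* window outside the stretch shown.

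Total counts ranged from 16401581 to 21972231 per sample. *Arid1a*, the targeted gene, was at 156 and 161 CPM (counts scaled by library size and TMM factor) in vehicle-treated WT tumors, at 103 and 106 CPM in the matching *Arid1a* KO tumors, at 144 and 155 CPM in JSH-23-treated WT tumors and at 93.8 and 95.9 CPM in JSH-23-treated *Arid1a* KO tumors. It was lower in all *Arid1a* KO samples but not absent. Despite the sort for EpCAM, *Epcam* had between 0 and 4 counts in every sample. *Krt18* (4 to 18 counts) and *Cdh1* (1 to 19) were also low. The epithelial genes *Krt8* (540 to 2308 counts), *Cldn3* (4167 to 7023) and *Cldn4* (111 to 225) were higher. The summed level of 6 epithelial markers, mostly *Cldn3*, was 319 to 361 CPM in all WT samples and in *Arid1a* KO samples with vehicle. It was 447 to 452 CPM in *Arid1a* KO samples with JSH-23. *Krt8* itself was 2.02-fold higher in *Arid1a* KO than in WT samples with vehicle. For 10 leukocyte markers the sum was 19.6 to 22.4 CPM in vehicle samples, 19.3 and 10.4 CPM in WT samples with JSH-23 and 13.0 and 10.2 CPM in *Arid1a* KO samples with JSH-23, with the defining marker *Ptprc* at 0 to 10 counts. The like sums with vehicle held opposite differences, as 4 of the 5 tested leukocyte markers were called lower and 1 higher in *Arid1a* KO than in WT samples. The macrophage genes *Adgre1* and *Itgam* had no counts in *Arid1a* KO samples with vehicle, and *Lyz2* was 3.01-fold lower there, whereas *Cd68*, a lysosomal gene, was 2.498-fold higher. Sums over 5 endothelial markers were 1.13 to 3.59 CPM. The 7 fibroblast markers, mostly *Pdgfra*, summed to 61.3 to 66.2 CPM in 6 samples and to 43.6 and 42.0 CPM in *Arid1a* KO samples with JSH-23, while the 4 adipocyte markers, mostly *Fabp4*, summed to 46.4 to 66.6 CPM. The part of these differences in the results was not tested, and in bulk samples fewer cells of a type and less RNA per cell cannot be told apart.

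Levels were compared between genes as TPM (counts corrected for gene length and depth), and the 9 genes spanned 5 well-measured genes and 4 at the edge of detection. *Aldh1a1* was the highest in every sample, between 885 and 1869 TPM. It was followed by *Aldh1a7* or *Rarg*, whose order changed between groups: *Aldh1a7* was at 183 to 280 TPM in 6 samples but at 103 and 100 TPM in vehicle-treated *Arid1a* KO tumors, where *Rarg* was at 115 and 116 TPM. *Rara* stood at 41.8 to 51.2 TPM and *Aldh1a3* at 4.40 to 16.8 TPM. *Rarg* was thus 2.37 to 2.86 times as abundant per length as *Rara* within each sample.

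**Figure D1:**
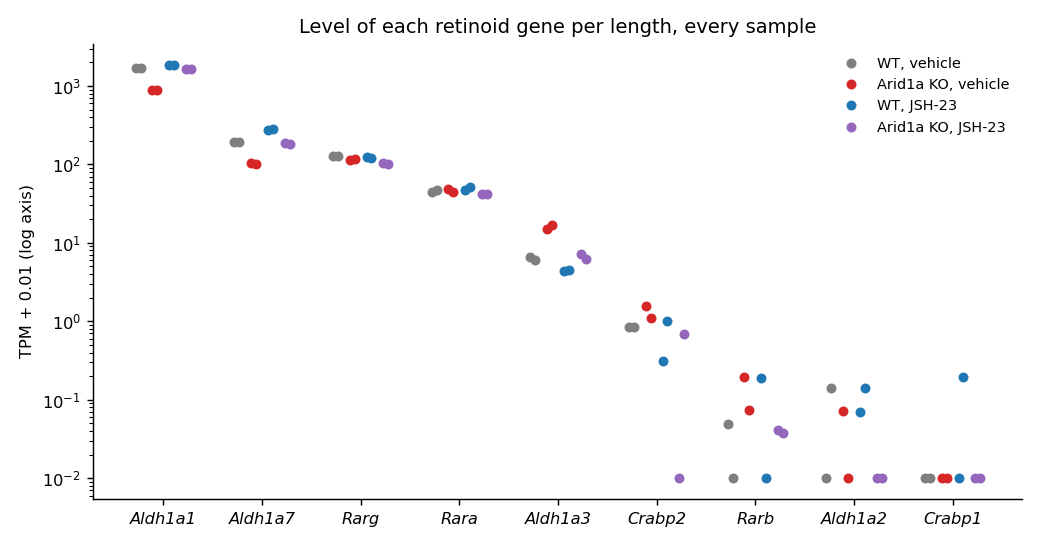
Level of each of the 9 genes in every sample as TPM + 0.01 on a log axis, colored by group, so that points at 0.01 are samples with no counts. *Aldh1a1* lies highest at 885 to 1869 TPM, and *Crabp2*, *Rarb*, *Aldh1a2* and *Crabp1* stay below 2 TPM.

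The remaining 4 genes were too low for a test. *Aldh1a2*, the main retinoic acid-producing enzyme of the early embryo, had 0 and 2 counts in vehicle-treated WT tumors, 1 and 0 in vehicle-treated *Arid1a* KO tumors, 1 and 2 in JSH-23-treated WT tumors and 0 in both JSH-23-treated *Arid1a* KO tumors. *Crabp1* had 1 count in 1 JSH-23-treated WT tumor and 0 in the other 7 samples. *Crabp2*, the carrier that hands retinoic acid to RAR, had 5 and 5, 10 and 8, 2 and 6, and 0 and 6 counts in the same order of groups. *Rarb*, itself a classic retinoic acid target, had 1 and 0, 5 and 2, 5 and 0, and 1 and 1 counts. A level of 3 counts or fewer was not told from 0, so *Aldh1a2* and *Crabp1* were not detected above that limit in any sample, and *Rarb* exceeded it in 1 sample each of 2 groups. At this depth no difference between groups could be read for these genes.

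Each comparison was tested with edgeR's quasi-likelihood test over all 8 samples, and a gene was called at a Benjamini-Hochberg adjusted p under 0.05 over all genes with a change of at least 1.5-fold. Between *Arid1a* KO and WT tumors given vehicle, 12.6% of all genes tested were called (7.48% higher and 5.16% lower), and 2 of the 4 tested genes other than *Aldh1a1* were: *Aldh1a3* rose and *Aldh1a7* fell. With JSH-23, where 8.71% of all genes were called between the genotypes (3.74% higher, 4.97% lower, and 47.0% at an adjusted p under 0.05 alone), *Aldh1a3* alone was called among these 4. JSH-23 against vehicle called 26.0% of all genes in *Arid1a* KO tumors (9.1% higher, 16.9% lower, and 67.8% by the adjusted p alone) and again *Aldh1a3*, now lower, and *Aldh1a7*, now higher. In WT tumors JSH-23 called 15.8% of all genes (5.55% higher and 10.2% lower) and 0 of the 4, although 3 had an adjusted p under 0.05 (and the same number an unadjusted one), as did 55.8% of all genes. DESeq2 also called 0 of the 4 there. The interaction, which asks whether the JSH-23 difference was larger in 1 genotype, called 9.07% of all genes (3.3% higher and 5.76% lower) and 0 of the 4, with 2 at an adjusted p under 0.05 and 2 at an unadjusted one, against 38.4% of all genes by the adjusted p, and 0 were called by DESeq2. Comparisons that share a group are not independent of each other, and with counts over 4 genes the shares say little about the set.

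**Figure D2:**
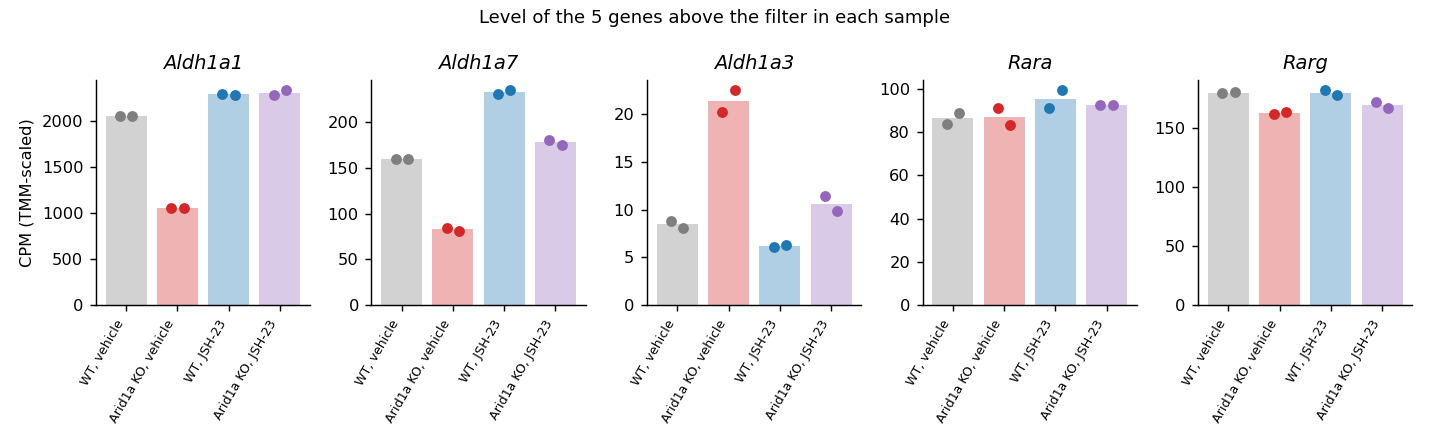
CPM of the 5 genes that passed the filter, with bars for group means and points for the 2 samples of each group, on axes that start at 0. *Aldh1a1* and *Aldh1a7* are lowest in vehicle-treated *Arid1a* KO tumors, *Aldh1a3* is highest there, and *Rara* and *Rarg* differ little.

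*Aldh1a1*, which encodes the cytosolic enzyme that oxidizes retinal, was roughly halved in vehicle-treated *Arid1a* KO tumors and stood near the WT level in JSH-23-treated *Arid1a* KO tumors. Its values were 2054 and 2052 CPM in vehicle-treated WT tumors, 1055 and 1058 CPM in vehicle-treated *Arid1a* KO tumors, 2299 and 2287 CPM in JSH-23-treated WT tumors, and 2285 and 2333 CPM in JSH-23-treated *Arid1a* KO tumors. Both *Arid1a* KO samples with vehicle were far below the other 6, and the samples of the JSH-23 groups overlapped. The SD of log2 CPM within groups was 0.011. *Arid1a* KO with vehicle was 1.94-fold lower than WT (log2 fold change -0.96, standard error 0.014), and JSH-23 in *Arid1a* KO tumors was 2.19-fold higher than vehicle (1.13, standard error 0.014). In WT tumors JSH-23 was 1.12-fold higher (0.16, standard error 0.013). As *Aldh1a1* was chosen on these values, its standard errors are a description and no support for a difference.

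Between the genotypes under JSH-23 the *Aldh1a1* difference was 0.01 on the log2 scale, but its sign depended on the scaling. It was -0.067 with library size alone and -0.18 on the log2(TPM + 1) scale, on which the median of all genes lay at -0.09 and -0.16. Relative to that median, the difference was 0.02, 0.02 and -0.02 under the TMM, library size and TPM scales. As TPM, *Aldh1a1* was at 1632 and 1653 in JSH-23-treated *Arid1a* KO tumors, below the 1713 and 1715 of vehicle-treated WT tumors, whereas its CPM there lay above those of WT with vehicle. The drop in vehicle-treated *Arid1a* KO tumors was -0.93 to -0.95 in the same alternatives. The 2 WT samples with JSH-23 differed in their leukocyte marker sum, 19.3 against 10.4 CPM, and their *Aldh1a1* levels were 2299 and 2287 CPM. Any part of leukocytes in the *Aldh1a1* level was not tested.

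*Aldh1a7* fell with *Aldh1a1* in *Arid1a* KO tumors and rose with JSH-23. It was at 159 and 160 CPM in vehicle-treated WT tumors, 84.0 and 81.6 CPM in vehicle-treated *Arid1a* KO tumors, 231 and 235 CPM in JSH-23-treated WT tumors, and 180 and 176 CPM in JSH-23-treated *Arid1a* KO tumors. No samples of different groups overlapped, and JSH-23-treated WT tumors were the highest. *Aldh1a7* fell with *Arid1a* loss under vehicle (log2 fold change -0.95, standard error 0.035, adjusted p = 4.03e-35 from edgeR). JSH-23 raised it by 1.11 (standard error 0.034, adjusted p = 1.66e-40) in *Arid1a* KO tumors.

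Unlike *Aldh1a1*, *Aldh1a7* still differed between the genotypes under JSH-23, by -0.39 (standard error 0.029, adjusted p = 5.40e-19 in edgeR's test), a 1.31-fold difference under the fold threshold. The gain with JSH-23 in WT tumors was 0.55 (adjusted p = 1.68e-25, 1.46-fold), and the interaction was 0.56 (standard error 0.046, adjusted p = 7.99e-17, 1.47-fold), both just short of 1.5-fold. Without replicate 2 of *Arid1a* KO with JSH-23, the interaction passed the fold threshold at 0.59. The direction of all these differences held under library size scaling and on the TPM scale. With the biological coefficient of variation set to 0.1, edgeR's likelihood ratio test gave an adjusted p of 0.0550 between the genotypes under JSH-23. For the interaction it gave 0.0936.

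Within a sample, the ratio of the copies does not depend on scaling. *Aldh1a7* took 7.21% and 7.22% of the summed *Aldh1a1* and *Aldh1a7* counts in vehicle-treated WT tumors, 7.37% and 7.16% in vehicle-treated *Arid1a* KO tumors, 9.15% and 9.32% in JSH-23-treated WT tumors, and 7.32% and 7.01% in JSH-23-treated *Arid1a* KO tumors. The exact binomial 95% intervals (Clopper-Pearson), which cover counting error only, were 8.88% to 9.42% and 9.04% to 9.60% in JSH-23-treated WT tumors, and their bounds lay between 6.79% and 7.73% in the other 6 samples. Thus the copies kept nearly the same ratio, 12.6 to 13.3 *Aldh1a1* counts for each *Aldh1a7* count, in 3 groups, and the ratio was 9.93 and 9.73 in JSH-23-treated WT tumors. As 2 samples against 2 cannot reach a permutation p under 0.05, the shift was not tested beyond these intervals. With both genes summed, the log2 difference of the pair was 0.93 for the interaction and -0.02 between the genotypes under JSH-23.

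**Figure D3:**
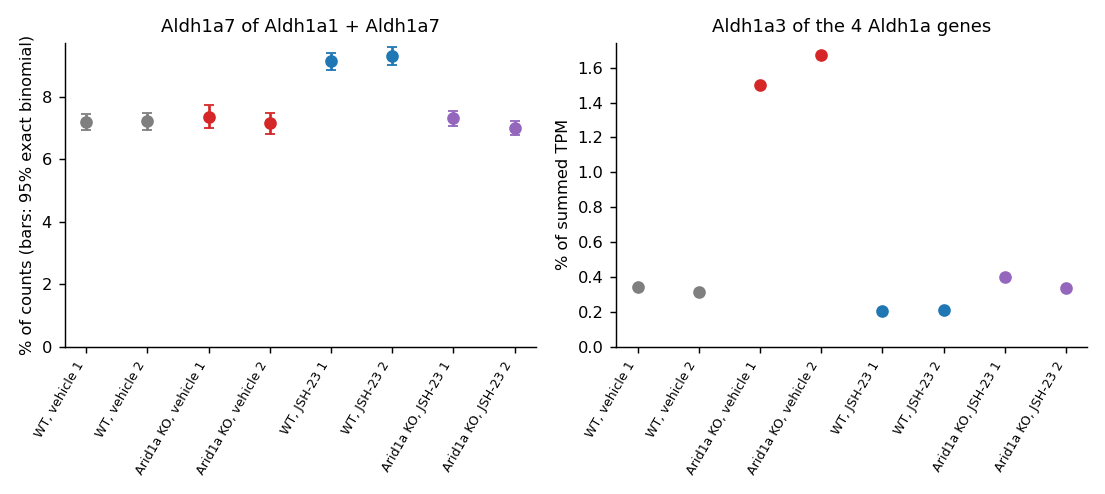
Left, *Aldh1a7* as a percentage of the summed *Aldh1a1* and *Aldh1a7* counts in each sample, with exact binomial 95% intervals; right, *Aldh1a3* as a percentage of the summed TPM of the 4 *Aldh1a* genes. *Aldh1a7* is at 9.15% and 9.32% in JSH-23-treated WT tumors and at 7.01% to 7.37% elsewhere, and *Aldh1a3* is at 1.501% and 1.67% in vehicle-treated *Arid1a* KO tumors and at 0.205% to 0.398% elsewhere.

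*Aldh1a3*, the family member that makes retinoic acid in the eye and nasal region of the embryo, moved the other way. It had 149 and 138 counts in vehicle-treated WT tumors, 366 and 465 in vehicle-treated *Arid1a* KO tumors, 109 and 103 in JSH-23-treated WT tumors, and 212 and 205 in JSH-23-treated *Arid1a* KO tumors. Scaled to depth, these were 8.85 and 8.12 CPM, 20.2 and 22.5 CPM, 6.09 and 6.26 CPM, and 11.5 and 9.83 CPM. Both *Arid1a* KO groups were above both WT groups, with no overlap. *Aldh1a3* (chr7:66390892-66427477, minus strand) rose by 1.34 on the log2 scale in vehicle-treated *Arid1a* KO tumors (standard error 0.11, adjusted p = 4.83e-17 by edgeR), a 2.52-fold change. Under JSH-23 it was higher in *Arid1a* KO by 0.78 (standard error 0.13, adjusted p = 8.87e-07), or 1.72-fold. On the log2(TPM + 1) and log2(TPM + 0.1) scales that difference was 0.50 and 0.58, under the fold threshold, but the median of all genes lay at -0.16 and -0.19 there, and relative to it *Aldh1a3* was at 0.66 and 0.77.

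JSH-23 lowered *Aldh1a3* in *Arid1a* KO tumors by -1.01 (standard error 0.10, adjusted p = 8.22e-14 in edgeR). The WT difference was -0.46 (standard error 0.14, adjusted p = 0.00477), and without replicate 1 of WT with vehicle it was -0.39 with an adjusted p of 0.0581. The interaction of -0.55 (standard error 0.18, adjusted p = 0.00932) was under 1.5-fold and spanned -0.65 to -0.43 when single samples were left out. Its adjusted p was 0.05004 without replicate 2 of *Arid1a* KO with vehicle, 0.0778 without replicate 2 of *Arid1a* KO with JSH-23 and 0.0833 in DESeq2. Because *Aldh1a1* was so much more abundant, *Aldh1a3* made up 1.501% and 1.67% of the *Aldh1a* transcripts by TPM at its highest, in vehicle-treated *Arid1a* KO tumors. The summed TPM of the 4 *Aldh1a* genes was 1003 and 1005 in those samples, against 1915 and 1917 in vehicle-treated WT tumors.

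**Figure D4:**
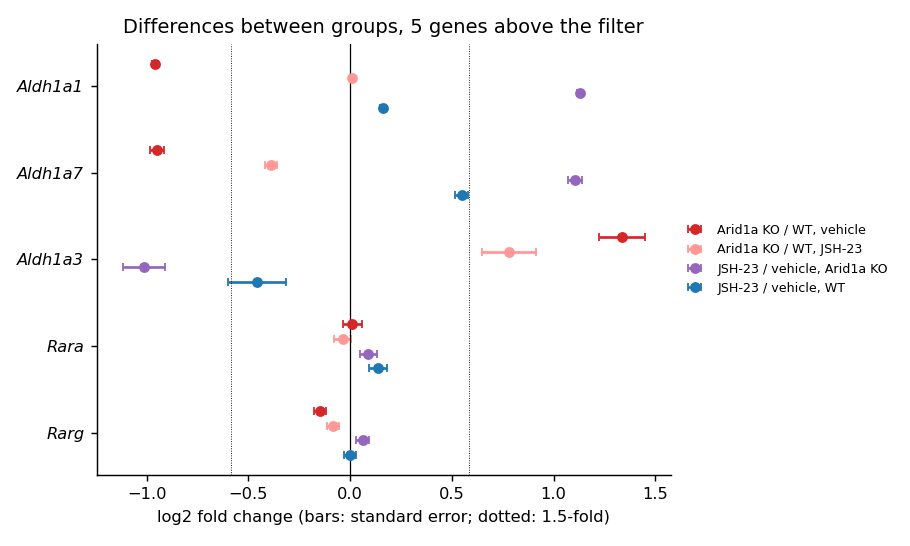
Log2 fold changes of the 5 genes in the 4 pairwise comparisons, with standard errors as bars and dotted lines at 1.5-fold. *Aldh1a1* and *Aldh1a7* lie near -0.95 for *Arid1a* loss with vehicle and near 1.1 for JSH-23 in *Arid1a* KO tumors, *Aldh1a3* lies at 1.34 and -1.01, and *Rara* and *Rarg* stay within 0.15 of 0.

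The receptors differed little. *Rara*, which encodes the broadly expressed RARα, was at 83.8 and 89.0 CPM in vehicle-treated WT tumors, 91.0 and 83.5 CPM in vehicle-treated *Arid1a* KO tumors, 91.1 and 99.3 CPM in JSH-23-treated WT tumors, and 92.6 and 92.7 CPM in JSH-23-treated *Arid1a* KO tumors. The genotypes overlapped in both treatments. The difference between the genotypes with vehicle was 0.01 (95% interval -0.08 to 0.10, adjusted p = 0.867 in edgeR), and with JSH-23 it was -0.04 (95% interval -0.12 to 0.05, adjusted p = 0.511). *Rara* was 0.14 higher with JSH-23 in WT tumors (standard error 0.045, adjusted p = 0.00723). Without replicate 1 of WT with vehicle or replicate 2 of WT with JSH-23 that adjusted p was 0.129 and 0.193. For the same WT difference, DESeq2 gave an adjusted p of 0.0676 and limma on the log2(TPM + 1) scale gave 0.194. In *Arid1a* KO tumors the JSH-23 difference was 0.09 (adjusted p = 0.0598 in edgeR), and it was -0.15 on the log2(TPM + 1) scale. The median of all genes was -0.20 there, so that relative to the median the *Arid1a* KO difference of *Rara* was 0.11 and 0.06. Its adjusted p was 0.0275 with only the groups compared and under 0.05 in 5 of the 8 fits that left out 1 sample, from 0.00711 without replicate 1 to 0.608 without replicate 2 of *Arid1a* KO with vehicle.

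*Rarg*, the receptor prominent in skin and epithelia, was at 180 and 181 CPM in vehicle-treated WT tumors, 162 and 164 CPM in vehicle-treated *Arid1a* KO tumors, 182 and 178 CPM in JSH-23-treated WT tumors, and 172 and 167 CPM in JSH-23-treated *Arid1a* KO tumors. *Arid1a* KO samples lay below WT samples in both treatments. The log2 difference was -0.15 with vehicle (standard error 0.031, adjusted p = 3.42e-05 in edgeR) and -0.09 with JSH-23 (standard error 0.030, adjusted p = 0.0161), a fall of 1.11-fold and 1.06-fold. Neither reached 1.5-fold, and the adjusted p of the latter was 0.161 without replicate 1 of WT with JSH-23, 0.294 without replicate 2 of *Arid1a* KO with JSH-23 and 0.114 in DESeq2. For the genotype difference with vehicle, edgeR's likelihood ratio test gave an adjusted p of 0.537 with the biological coefficient of variation set to 0.1. Set to 0.2, it gave 0.967. JSH-23 against vehicle gave -0.00 in WT tumors (95% interval -0.06 to 0.06, adjusted p = 0.965 in edgeR's quasi-likelihood test) and 0.06 in *Arid1a* KO tumors (adjusted p = 0.0682). The latter was -0.17 on the log2(TPM + 1) scale, where the median of all genes was -0.20 and *Rarg* lay 0.03 above it.

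Genes whose pattern over the 8 samples was most like that of *Aldh1a1* were ranked by Pearson's r of log2(CPM + 1) among the 9193 other genes that averaged 10 CPM or more. The first 5 were *Mybbp1a* (r = 0.999), a nucleolar protein gene, *Sfmbt2* (0.998), of the Polycomb group, *Cdc20* (0.997), which activates the anaphase-promoting complex, *Pgls* (0.997), of the pentose phosphate pathway, and *Mmut* (0.997), the mitochondrial methylmalonyl-CoA mutase gene. *Sfmbt2* was at 122 and 122 CPM in vehicle-treated WT tumors, 52.5 and 50.8 CPM in vehicle-treated *Arid1a* KO tumors, 150 and 149 CPM in JSH-23-treated WT tumors and 141 and 146 CPM in JSH-23-treated *Arid1a* KO tumors. *Cdc20* was at 109 and 106, 49.7 and 48.8, 117 and 117, and 125 and 129 CPM in the same order. *Mybbp1a* was at 520 and 523, 389 and 389, 544 and 544, and 539 and 555 CPM. Its fall was smaller than that of *Aldh1a1*, as r does not measure the size of a change. Such values describe 4 groups of 2 that share their scaling, and many genes with 1 low group reach a high r. *Aldh1a7* ranked at 205 (r = 0.957), *Rarg* at 1810 (0.753), *Rara* at 3455 (0.466) and *Aldh1a3* at 8815 (-0.901).

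Around the 9 genes, 71 further genes of retinoid handling and of the aldehyde dehydrogenase family were listed, and 49 of them were tested. Between *Arid1a* KO and WT tumors given vehicle, 5 were called higher and 4 lower (18.4% of those tested, against 12.6% of all genes), with a median log2 fold change of -0.16 against 0.00 over all genes. Under JSH-23 the genotypes differed by the call in 3 of the 49 (6.12% against 8.71%). JSH-23 in *Arid1a* KO tumors gave 7 called higher and 7 lower (28.6% against 26.0%), and in WT tumors 5 higher and 5 lower (20.4% against 15.8%). The interaction called 3 (6.12% against 9.07%). These shares were near the background, and a few genes account for the larger values.

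Among genes of retinol uptake, carriers and storage, 6 of 11 were tested. *Fabp5*, a fatty acid-binding protein that can deliver retinoic acid to PPARδ, fell by -0.68 in vehicle-treated *Arid1a* KO tumors (standard error 0.066, adjusted p = 3.46e-14 in edgeR). It was at 49.5 and 52.7 CPM in vehicle-treated WT tumors, 33.9 and 30.1 CPM in vehicle-treated *Arid1a* KO tumors, 34.8 and 35.3 CPM in JSH-23-treated WT tumors, and 50.9 and 45.6 CPM in JSH-23-treated *Arid1a* KO tumors. JSH-23 thus went with a rise of 0.59 in *Arid1a* KO tumors (adjusted p = 1.55e-12), at the edge of the fold threshold and below it without replicate 2 of *Arid1a* KO with vehicle (0.51) or replicate 1 of *Arid1a* KO with JSH-23 (0.53), and a difference of -0.55 in WT tumors, under the fold threshold. The rise of *Fabp5* was 0.48 with library size scaling and 0.35 on the log2(TPM + 1) scale, where the medians of all genes were -0.13 and -0.20. The interaction was 1.14 (standard error 0.093, adjusted p = 5.88e-17).

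Retinol and retinal oxidoreductases had 13 of 20 genes tested, of which 1 was called between the genotypes with vehicle (7.69%, against 12.6% of all genes). For JSH-23, 4 were called in *Arid1a* KO tumors (30.8% against 26.0%) and 3 in WT tumors (23.1% against 15.8%). *Rdh11*, which reduces retinal in the endoplasmic reticulum, was at 17.5 and 19.4 CPM in vehicle-treated *Arid1a* KO tumors and at 37.2 and 34.9 CPM with JSH-23, a rise of 0.96 (standard error 0.077, adjusted p = 4.34e-18 in edgeR). Its rise with JSH-23 in WT tumors was 0.39 (adjusted p = 8.77e-06), under 1.5-fold. *Dhrs9*, a retinol-oxidizing enzyme gene, fell with JSH-23 from 46.9 and 46.6 CPM to 26.4 and 28.2 CPM in *Arid1a* KO tumors (-0.77, adjusted p = 1.09e-16). In WT tumors *Dhrs9* also fell with JSH-23, by -0.56 (adjusted p = 2.39e-09 in edgeR), just under 1.5-fold. *Rdh5* was low, at 2.05 to 5.12 CPM, and fell with JSH-23 by -0.85 in *Arid1a* KO tumors (adjusted p = 4.96e-04) and by -0.64 in WT tumors (adjusted p = 0.00679, and 0.0712 without replicate 2 of WT with vehicle). In DESeq2 the WT difference of *Rdh5* had an adjusted p of 0.0632. *Adh1*, a class I alcohol dehydrogenase gene, was at 1.54 and 1.94 CPM in vehicle-treated WT tumors and at 2.81 to 3.91 CPM in the other 6 samples. Between the genotypes with vehicle, DESeq2 gave *Adh1* an adjusted p of 0.0540. The difference in vehicle-treated *Arid1a* KO tumors (0.80, adjusted p = 0.00705) was 0.65 without replicate 1 of WT with vehicle and 0.68 without replicate 1 of *Arid1a* KO with vehicle, still above 1.5-fold but with an adjusted p of 0.0925 and 0.0703, and its rise with JSH-23 in WT tumors was 0.99 (adjusted p = 8.34e-04).

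Of the retinoic acid-degrading CYP26 genes, *Cyp26b1* alone was tested. It had 36 and 18 counts in vehicle-treated WT tumors, 32 and 34 in vehicle-treated *Arid1a* KO tumors, 28 and 31 in JSH-23-treated WT tumors and 13 in both JSH-23-treated *Arid1a* KO tumors. The last group was the lowest, and it also had the lowest fibroblast and the highest epithelial marker sums. These sums were mostly *Pdgfra* and mostly *Cldn3*, and their part in this was not tested. Among *Arid1a* KO tumors JSH-23 went with -1.36 (standard error 0.39, adjusted p = 0.00166 in edgeR), and *Arid1a* KO against WT under JSH-23 gave -1.37 (standard error 0.40, adjusted p = 0.00288). The interaction, at -1.46 (standard error 0.52, adjusted p = 0.0207), had an adjusted p of 0.105 in DESeq2 and was -0.29 (adjusted p = 0.149) on the log2(TPM + 1) scale, which shrinks the differences of low genes. It was 0.154, 0.0621, 0.0764 and 0.0748 without replicate 2 of WT with vehicle, replicate 1 of *Arid1a* KO with vehicle, replicate 2 of WT with JSH-23 and replicate 2 of *Arid1a* KO with JSH-23. *Cyp26a1* had 0 to 4 counts and *Cyp26c1* had 0 in every sample.

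RXR partners and coregulators had 9 of 10 genes tested and 0 called by edgeR or by DESeq2 in any of the 5 comparisons. In edgeR, between 4 and 8 of the 9 had an unadjusted p under 0.05 in a comparison, and the adjusted p was under 0.05 for 7 between the genotypes with vehicle (50.5% of all genes) and for 7, all negative, in the interaction (38.4% of all genes). *Rxra* was at 76.8 and 81.8 CPM in vehicle-treated WT tumors, 67.2 and 66.7 CPM in vehicle-treated *Arid1a* KO tumors, 74.9 and 75.3 CPM in JSH-23-treated WT tumors and 53.7 CPM in both JSH-23-treated *Arid1a* KO tumors. Its genotype difference was -0.24 with vehicle (adjusted p = 9.40e-06 by edgeR) and -0.48 with JSH-23 (adjusted p = 2.11e-13), an interaction of -0.24 (adjusted p = 0.00335). *Rxrb* was 0.27 higher with JSH-23 in WT tumors (adjusted p = 3.35e-07) and 0.34 higher in *Arid1a* KO tumors (adjusted p = 5.05e-10). *Rxrg* had no counts in any sample.

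Genes that respond to retinoic acid in many cell types were tested for 7 of 11. *Tgm2*, tissue transglutaminase, was at 418 and 412 CPM in vehicle-treated WT tumors, 237 and 230 CPM in vehicle-treated *Arid1a* KO tumors, 380 and 391 CPM in JSH-23-treated WT tumors and 275 and 276 CPM in JSH-23-treated *Arid1a* KO tumors. It fell by -0.83 in vehicle-treated *Arid1a* KO tumors (standard error 0.024, adjusted p = 1.75e-41 in edgeR), and both *Arid1a* KO groups remained below both WT groups. *Rarres1*, at 1.27 to 3.85 CPM, rose with JSH-23 by 0.92 in *Arid1a* KO tumors (adjusted p = 0.00166) and by 0.91 in WT tumors (adjusted p = 0.00223). Without replicate 1 of *Arid1a* KO with vehicle the first was 0.66 (adjusted p = 0.0568), and without replicate 2 of WT with vehicle the second was 0.61 (0.0894). *Hoxa5*, a homeobox gene, fell with JSH-23 in WT tumors by -0.59 (adjusted p = 0.0102). Its adjusted p was 0.0786 in DESeq2, 0.0518 without replicate 2 of WT with vehicle and 0.140 without replicate 1 of WT with JSH-23. The list's median with *Arid1a* loss and vehicle was -0.26, with 3 of 7 lower and 0 higher at an adjusted p under 0.05, against 50.5% of all genes in either direction.

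Aldehyde dehydrogenases outside the ALDH1A family had 13 of 16 genes tested. Of these, 5 were called between the genotypes with vehicle and 2 with JSH-23 (38.5% and 15.4%, against 12.6% and 8.71% of all genes), 5 for JSH-23 in *Arid1a* KO tumors and 4 in WT tumors (38.5% and 30.8%, against 26.0% and 15.8%), and 0 in the interaction, where 7 had an adjusted p under 0.05. *Aldh1l2*, a mitochondrial enzyme of folate metabolism, was at 89.7 and 85.8 CPM in vehicle-treated WT tumors, 187 and 189 CPM in vehicle-treated *Arid1a* KO tumors, 43.2 and 42.2 CPM in JSH-23-treated WT tumors and 70.5 and 70.8 CPM in JSH-23-treated *Arid1a* KO tumors. It rose by 1.10 with *Arid1a* loss (standard error 0.037, adjusted p = 7.63e-38 in edgeR) and fell with JSH-23 by -1.41 in *Arid1a* KO tumors (adjusted p = 1.67e-44) and by -1.04 in WT tumors (adjusted p = 2.03e-29). *Aldh2*, the mitochondrial acetaldehyde dehydrogenase gene, was at 51.4 and 51.1 CPM in vehicle-treated *Arid1a* KO tumors and rose to 91.2 and 90.4 CPM with JSH-23 (0.82, standard error 0.046, adjusted p = 1.31e-25). On the log2(TPM + 1) scale, with the median of all genes at -0.20, that rise of *Aldh2* was 0.57, under 1.5-fold. In WT tumors *Aldh2* also rose with JSH-23, by 0.58 (adjusted p = 8.57e-18 in edgeR), just under 1.5-fold. *Aldh3b1*, at 3.44 to 11.2 CPM, fell by -0.76 with *Arid1a* loss and vehicle (adjusted p = 8.89e-05) and by -0.92 with JSH-23 (adjusted p = 1.40e-07). The first difference was -0.56 without replicate 2 of WT with vehicle and -0.48 without replicate 2 of *Arid1a* KO with vehicle, below 1.5-fold in both, and -1.07 without replicate 1 of the latter. *Aldh3a1*, at 0.71 to 2.37 CPM, was 0.99 higher with *Arid1a* loss and vehicle (adjusted p = 0.0326). Its adjusted p was 0.115 in DESeq2, and it was above 0.05 without replicate 1 of WT with vehicle (0.135), replicate 2 of WT with vehicle (0.101) or replicate 1 of *Arid1a* KO with vehicle (0.270).

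**Figure D5:**
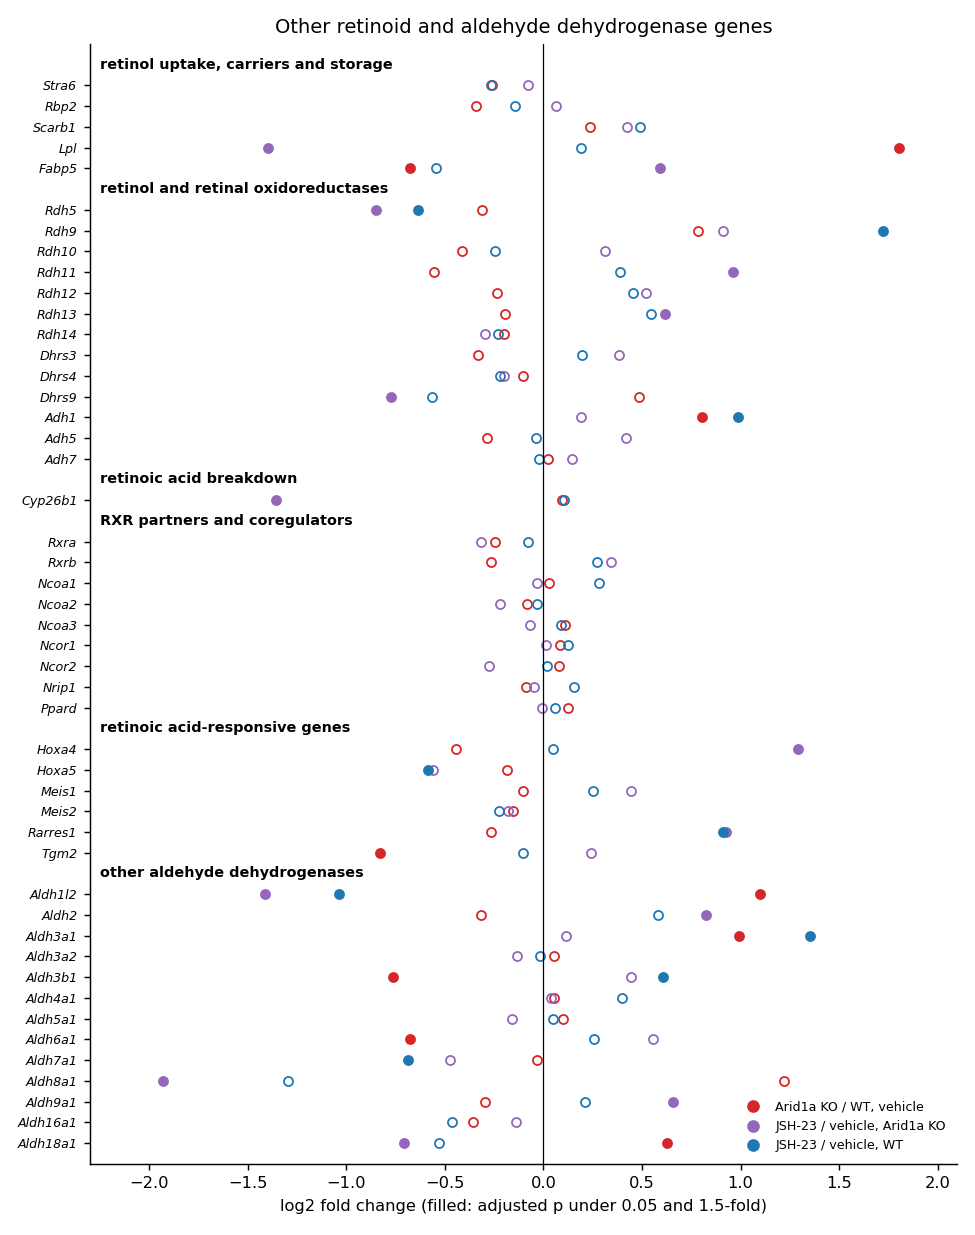
Log2 fold changes of 47 of the 49 tested genes in the 6 lists for *Arid1a* loss with vehicle and for JSH-23 in each genotype, with filled points for genes called at an adjusted p under 0.05 and 1.5-fold. The RXR and coregulator genes have no filled point, and *Aldh1l2* is filled in all 3 comparisons.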

How the data were processed

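Gene counts of 8 sorted Myc-CaP tumor samples in 4 groups were analysed. Per the methods of the authors, TopHat2 placed each read at its best match in GRCm38/mm10, and HTSeq counted reads by strand; the submitters' processing notes name HISAT2, HTSeq and DESeq2 instead. The deposited counts are raw whole numbers, and the deposited TPM values are counts per gene length rescaled to the same sum in each sample, which keeps no depth. The deposited series-wide TPM table was not used.

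Genes were filtered with filterByExpr, scaled with TMM factors (0.949 to 1.03) and fitted over all 8 samples with edgeR 4.0.16 in R 4.3.3, with Benjamini-Hochberg adjustment over 13921 genes; scripts were tested on simulated data. The common biological coefficient of variation was 1.61%. The 2 samples of each group differed beyond sampling noise (chi-square per degree of freedom 1.46 to 1.57). Sequences came from RefSeq promoters (GRCm38.p6) and the GRCm38 annotation.

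The genes and lists were chosen with earlier results of these data known. Named from each list were up to 4 called genes with the largest change, samples not overlapping and a mean of at least 1 CPM, plus all RXR and CYP26 genes; likeness used the 5 highest correlations. Some items of these lists are counted but not reported singly here. Alternatives were DESeq2 1.42.0, library size scaling, a minimum of 10 counts in every sample, no filter, limma 3.58.1 on TPM with a pseudocount of 1 or 0.1 before log2, a replicate block, only the groups compared, coefficients of variation of 0.1 and 0.2, *Aldh1a1* and *Aldh1a7* summed, and each sample left out.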

Additional observations from a re-analysis of the deposited data

Results flagged for a closer look

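Of the retinoid and aldehyde dehydrogenase genes named above and tested, 9 had an adjusted p under 0.05 in edgeR's interaction test. That test asks whether the response to JSH-23 differed between the genotypes, and 38.4% of all genes passed the same limit. Cell type markers were not counted here. Apart from RXR and CYP26 genes, list genes were named for a call in some comparison, so the count cannot be set against that share. *Aldh1a3* had an interaction of -0.55 (adjusted p = 0.00932), with JSH-23 at -1.01 in *Arid1a* KO and -0.46 in WT tumors. *Aldh1a7* had 0.56 (adjusted p = 7.99e-17), with 1.11 in *Arid1a* KO and 0.55 in WT tumors, and its ratio to *Aldh1a1* moved in WT tumors with JSH-23. *Cyp26b1* had -1.46 (adjusted p = 0.0207), resting on 13 to 36 counts. *Fabp5* had 1.14 (adjusted p = 5.88e-17) and was higher with JSH-23 in both *Arid1a* KO samples and lower in both WT samples. The others were *Rdh11* with 0.57 (adjusted p = 1.25e-05), *Tgm2* with 0.35 (adjusted p = 8.14e-14), *Aldh2* with 0.24 (adjusted p = 0.00193), *Aldh1l2* with -0.37 (adjusted p = 9.95e-07) and *Rxra* with -0.24 (adjusted p = 0.00335). Only *Cyp26b1* and *Fabp5* among these 9 reached 1.5-fold. With the biological coefficient of variation set to 0.1, edgeR's likelihood ratio test gave higher adjusted p. They were 0.0936 for *Aldh1a7*, 0.215 for *Aldh1a3*, 0.113 for *Rdh11*, 0.376 for *Tgm2*, 0.340 for *Aldh1l2*, 0.579 for *Aldh2* and 0.589 for *Rxra*. Set to 0.2, it also left *Fabp5* (0.385) and *Cyp26b1* (0.528) above 0.05. The median interaction of all genes was -0.11 with library size scaling, -0.17 on the log2(TPM + 1) scale and -0.20 on the log2(TPM + 0.1) scale. On these scales that of *Aldh2* was 0.14, 0.043 and 0.046, with adjusted p of 0.0805, 0.581 and 0.562, and relative to the median it was 0.25, 0.21 and 0.24.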

How the results depend on the processing

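Of 272 recomputed main values, 224 kept to the limits set (counts within 1.5 times, *Aldh1a1* within 1 SD of its replicates) and 48 did not; of single-gene differences, 820 kept their direction and their side of an adjusted p of 0.05, 88 rose above that p, 18 fell below it and 4 reversed. The cause was not tested for any of these except where the median of all genes is given. The *Aldh1a1* log2 fold change between the genotypes with vehicle was -0.93 with library size scaling and -0.95 with at least 10 counts in every sample. With JSH-23 it was -0.067 with library size scaling, -0.18 on both log2 TPM scales and -0.022 summed with *Aldh1a7*. JSH-23 in *Arid1a* KO tumors gave *Aldh1a1* 1.01 with library size scaling, 1.10 with at least 10 counts, 0.89 on both log2 TPM scales and 1.14 with only the groups compared. In WT tumors it gave 0.14 with at least 10 counts, 0.12 on both log2 TPM scales and 0.19 summed. The *Aldh1a1* interaction was 0.86 with library size scaling, 0.77 on both log2 TPM scales and 0.93 summed. *Rarg* reversed to -0.17 and -0.18 on the 2 log2 TPM scales for JSH-23 in *Arid1a* KO tumors and to -0.13 on both for the interaction. The median of all genes lay at -0.20 and -0.25 for the former and at -0.17 and -0.20 for the latter, and relative to it *Rarg* stayed positive, at 0.03 and 0.08 and at 0.03 and 0.06.

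Among the 4 tested genes other than *Aldh1a1*, 0 were called between the genotypes under JSH-23 on both log2 TPM scales and with a coefficient of variation of 0.2. In the interaction 1 (*Aldh1a3*) was called with library size scaling and on both log2 TPM scales. Of the 49 listed genes tested, a coefficient of variation of 0.2 left 2 called between the genotypes with vehicle and 0 with JSH-23. It left 6 for JSH-23 in *Arid1a* KO tumors, 2 in WT tumors and 0 in the interaction. The log2(TPM + 0.1) scale gave 6 between the genotypes with JSH-23, and log2(TPM + 1) gave 7 for JSH-23 in *Arid1a* KO and 4 in WT tumors. DESeq2 gave 6 in WT tumors. No filter (64 tested) or at least 10 counts (45 tested) gave 5 in the interaction. The shares of all genes called in these settings are not given here, so a change particular to the lists cannot be read.

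With 1 sample left out at a time, the lone sample was assumed to vary like the other groups. *Aldh1a1* spanned 0.0038 to 0.033 between the genotypes with JSH-23, 1.13 to 1.16 for JSH-23 in *Arid1a* KO tumors, 0.16 to 0.17 in WT tumors and 0.96 to 1.00 in the interaction. The 8 genes spanned 0 to 1 called in the interaction, with 1 called without replicate 1 of WT with vehicle, of *Arid1a* KO with vehicle or of *Arid1a* KO with JSH-23 or without replicate 2 of the last. Listed genes called spanned 3 to 5 between the genotypes with JSH-23 (5 without replicate 1 of WT with JSH-23), 6 to 10 for JSH-23 in WT tumors (6 without replicate 2 of WT with vehicle) and 2 to 5 in the interaction (5 without replicate 2 of *Arid1a* KO with vehicle or of WT with JSH-23).

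Same-numbered samples did not deviate together (correlations of -0.0964 to 0.0401), so the numbers pair nothing. With the replicate block the *Aldh1a1* interaction was 0.97, the listed genes called in the 5 comparisons stayed within the limits, 14 for JSH-23 in *Arid1a* KO tumors, and no call of a named gene changed. Pairs of samples limit every spread here, and the depth left 4 of the 9 genes without a test.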
